A study of Mus musculus with 4 samples.

Results

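Cadherins and tight junction genes were described in TKPTS cells as a set of 9 listed symbols, *Cdh1*, *Cdh2*, *Cdh6*, *Cdh16*, *Tjp1*, *Ocln*, *Cldn1*, *Cldn4* and *Cldn7*, among the 22063 genes of the deposited table. All 9 were found in it, and all 9 were among the 11727 genes that passed the filter on low counts and were tested. TKPTS cells, which the sample labels call TKPT, are a mouse proximal tubule epithelial line. Each of the 4 libraries came from cells held for 24 h in 1% O2 and returned for 12 h to normal oxygen, so hypoxia and reoxygenation were shared by both groups. The groups were 2 libraries of cells transfected with scrambled siRNA (si-NC, replicates 2 and 3; genotype label WT) and 2 of cells transfected with *Itgb6* siRNA (si-*Itgb6*, replicates 1 and 3; genotype label Itgb6 knockdown). Nothing in the labels says whether replicates were separate cultures, so the p-values measure the spread between these libraries, which may be technical. By the study's methods, libraries were selected for analysis after clustering, and si-NC replicate 1 and si-*Itgb6* replicate 2 were not analysed here.

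Epithelial cells are held together by adherens junctions, in which classical cadherins of neighbouring cells bind each other in the presence of calcium and are tied to actin through catenins. Above them, tight junctions seal the space between cells: claudins form the strands and set which ions pass, occludin lies in the same strands, and ZO-1, the product of *Tjp1*, links the strands to actin. In the kidney the junctional proteins differ along the nephron. Mature proximal tubule is known for N-cadherin, cadherin-6, claudin-2 and claudin-10, whereas E-cadherin, claudin-4 and claudin-7 are best known from distal segments and the collecting duct, and *Cdh16* encodes the kidney-specific cadherin found along most of the tubule.

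The libraries held 15435074 to 17220281 counts. *Itgb6*, the targeted gene, had 285 and 284 counts in the si-NC libraries and 279 and 260 counts in the si-*Itgb6* libraries, with a log2 fold change of -0.0051 ± 0.13 (SE), so the groups are named below by their labels. The share of counts from the 13 mitochondrial genes listed was 2.46% and 2.55% in the si-NC libraries and 2.96% and 2.91% in the si-*Itgb6* libraries, and its part in the results was not tested. Across genes tested, log2 fold changes (si-*Itgb6* minus si-NC) were lower at higher GC content of the transcript (Spearman's rho -0.364, a description across genes, which are not replicates). Values corrected for the trends of counts with GC content and length in each library are therefore given beside many of the results. A result given without a corrected value is not shown to be unmoved by these trends.

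Compared per length, as FPKM, the 9 genes fell into a high tier and a low tier. *Cdh1*, which encodes E-cadherin, was the highest, with 98.1 and 92.0 FPKM in si-NC and 84.1 and 86.7 FPKM in si-*Itgb6*, at rank 922 of the 22063 genes by mean level. *Cldn7* followed with a mean of 76.5 FPKM over the 4 libraries, and its libraries did not overlap with those of *Cdh1*. *Tjp1* at 54.5 FPKM and *Cdh16* at 53.0 FPKM came next and could not be ordered, since *Tjp1* was above *Cdh16* in 2 of the 4 libraries. *Cldn4* had a mean of 42.0 FPKM, below both in every library. *Ocln* at 28.1 FPKM and *Cldn1* at 25.4 FPKM overlapped across libraries, with *Ocln* above *Cldn1* in 3 of 4. The low tier held *Cdh6* and *Cdh2*, at 2.38 and 2.36 FPKM, which also overlapped. No library had *Cldn1* under 22.9 FPKM or *Cdh6* over 2.82 FPKM, and the 7 genes from *Cdh1* to *Cldn1* had means over 10 FPKM. When the counts were divided by the annotated exon length instead of being taken as FPKM, the tiers stayed as they were. On that scale, *Cldn4* (42.0 counts per kilobase after scaling to library size) came above *Cdh16* (37.2) and *Cldn7* (51.9) came close to *Tjp1* (46.6). *Cdh6* (2.16) then came above *Cdh2* (1.19). With *Cdh1* at 87.4, the ratio of *Cdh1* to *Cdh2* was wider there than in FPKM.

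**Figure D1:**
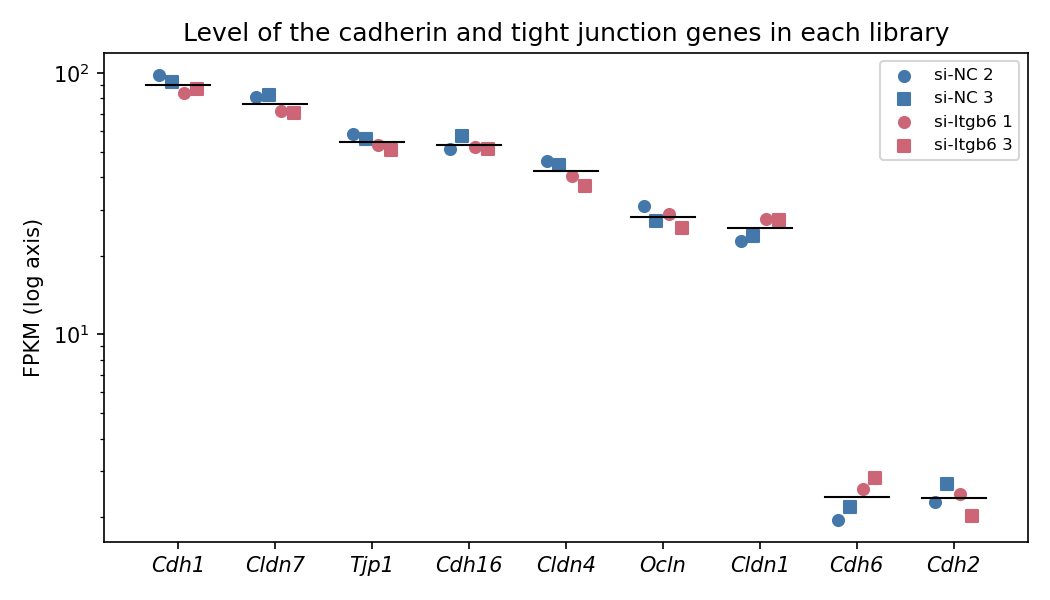
Level of each gene in the 4 libraries, as FPKM on a log axis, with genes ordered by their mean (black line); circles and squares are the replicates, blue si-NC and red si-Itgb6. The 7 genes from Cdh1 to Cldn1 lie between 22.9 and 98.1 FPKM, and Cdh6 and Cdh2 lie between 1.96 and 2.82 FPKM.

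The cadherins in the high tier were the E-cadherin and kidney-specific types. *Cdh1* exceeded *Cdh2* (N-cadherin) 42.8-fold and 34.3-fold per length in the si-NC libraries and 34.2-fold and 43.0-fold in the si-*Itgb6* libraries, ranges that overlap. Of the summed FPKM of the 23 cadherin genes listed, *Cdh1* made up 50.2% to 55.0% and *Cdh16* 28.8% to 31.8% across the 4 libraries. *Cdh3*, which encodes P-cadherin, followed with 6.21% to 6.33%, and *Cdh13*, whose product T-cadherin is anchored in the membrane by lipid, with 3.59% to 5.48%. Among the 32 claudin genes listed, 6 had a mean over 0.5 FPKM. *Cldn7* made up 34.9% to 38.4% of their summed FPKM and *Cldn4* 18.8% to 21.8%. *Cldn12*, *Cldn3* and *Cldn1* each made up between 10.8% and 17.9%. *Cldn2* and *Cldn10*, the claudins of mature proximal tubule, had 0 counts in all 4 libraries, which allows at most 0.194 CPM in the shallowest of them.

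**Figure D2:**
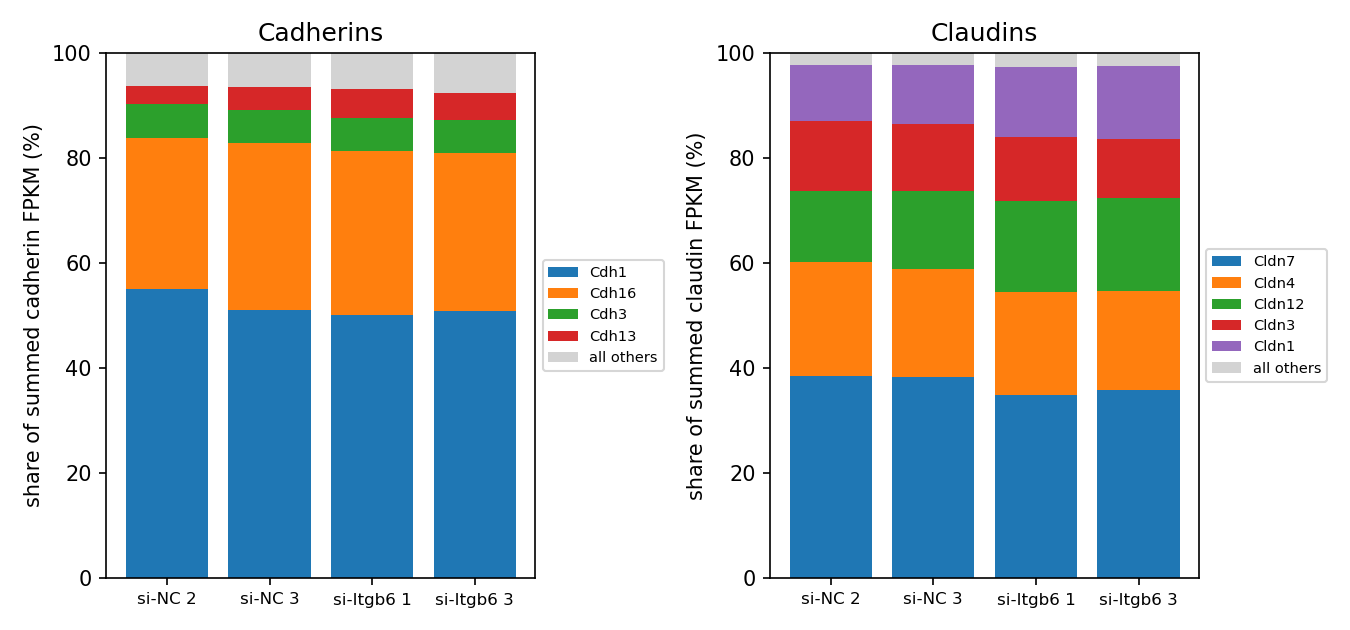
Share of each gene in the summed FPKM of all cadherin genes (left) and all claudin genes (right) in each library, as stacked bars from 0 to 100%. Cdh1 and Cdh16 hold most of the cadherin bars, and the Cldn1 segment is wider in both si-Itgb6 libraries (13.5% and 13.9%) than in both si-NC libraries (10.8% and 11.1%).

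The labelled cell type was compared with marker genes. All 5 epithelial markers were present, with summed levels of 2971 to 2991 FPKM in si-NC and 2839 to 2863 FPKM in si-*Itgb6*. Of 11 proximal tubule markers, 6 had 0 counts in every library, among them *Slc34a1* and *Cldn2*. *Lrp2*, the endocytic receptor megalin, had 2 to 17 counts per library. The summed level of the list, 10.2 to 11.6 FPKM in si-NC and 15.6 to 15.8 FPKM in si-*Itgb6*, came mostly from *Aqp1*. *Aqp1* itself was 50.3% higher in si-*Itgb6* (log2 fold change 0.59, adjusted p = 0.000617, edgeR, Benjamini-Hochberg). The part of these marker differences in the results was not tested. The proximal tubule label therefore rested on few defining markers in these libraries. Of 10 markers of thick limb, distal tubule and collecting duct, 0 had a mean over 1 FPKM, and *Umod* had 0 counts, so the high levels of *Cdh1*, *Cldn4* and *Cldn7* did not go with defining genes of those segments either. Summed fibroblast and mesenchyme markers were 1.39 to 1.65 FPKM in si-NC and 1.67 to 2.46 FPKM in si-*Itgb6*, where replicate 1 alone held 22 counts of *Col1a1*, against 0 to 2 in the other libraries. Summed endothelial markers were 0.819 to 1.10 FPKM and 0.686 to 2.07 FPKM. The leukocyte list reached 92.6 to 100.03 FPKM in si-NC and 84.5 to 93.2 FPKM in si-*Itgb6*, most of it from the lysosomal gene *Cd68*. *Csf1r*, a receptor of macrophages whose exons overlap those of *Hmgxb3* on the opposite strand, had 449 and 468 counts in si-NC and 418 and 365 counts in si-*Itgb6*, and *Lyz2* had 11 counts in si-*Itgb6* replicate 1 and 0 in the other libraries. There were 0 to 6 counts of *Ptprc*, which encodes CD45, and at most 1 count of *Adgre1*.

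Between the groups, the differences were small: 7 of the 9 genes had lower and 2 had higher values in the libraries labelled si-*Itgb6*, with a median log2 fold change of -0.11 against 0.00017 over all genes tested. At the thresholds that the study names, p below 0.05 without adjustment together with a fold over 1.2, edgeR's quasi-likelihood test called 1 of the 9 genes, *Cdh6*, which rose. These thresholds called 9.57% of all genes tested, 4.37% higher and 5.2% lower, so 1 of 9 is near that background. At an adjusted p under 0.05 with no limit on fold (Benjamini-Hochberg over all genes tested), 1 gene was called, *Cldn1*, which rose by a fold just under 1.2. This rule called 4.62% of all genes, 2.11% higher and 2.52% lower. None of the 9 was called by both rules, and 0 were called lower by either of them, nor by DESeq2 at the study's thresholds, against 4 at an unadjusted p below 0.05.
With the p threshold alone, *Cdh1*, *Tjp1*, *Cldn4* and *Cldn7* were lower and *Cdh6* and *Cldn1* higher (4 and 2 of 9), where 9.62% and 8.8% of all genes were. Groups were apart, with no shared range, for these same 6 genes, and so they were for 49.2% of all genes tested (25.4% lower, 23.8% higher). After GC and length correction, 1 gene (*Tjp1*) was lower and 2 (*Cdh6* and *Cldn1*) were higher at the p threshold. In that fit 6.11% of all genes were lower and 8.95% higher. With 1 library left out, the median log2 fold change of the 9 genes ran from -0.15 to -0.094. With 2 libraries per group an exact permutation test of a single gene cannot go below a two-sided p of 0.333. In bulk RNA, fewer cells that carry a transcript and less of it per cell cannot be told apart.

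**Figure D3:**
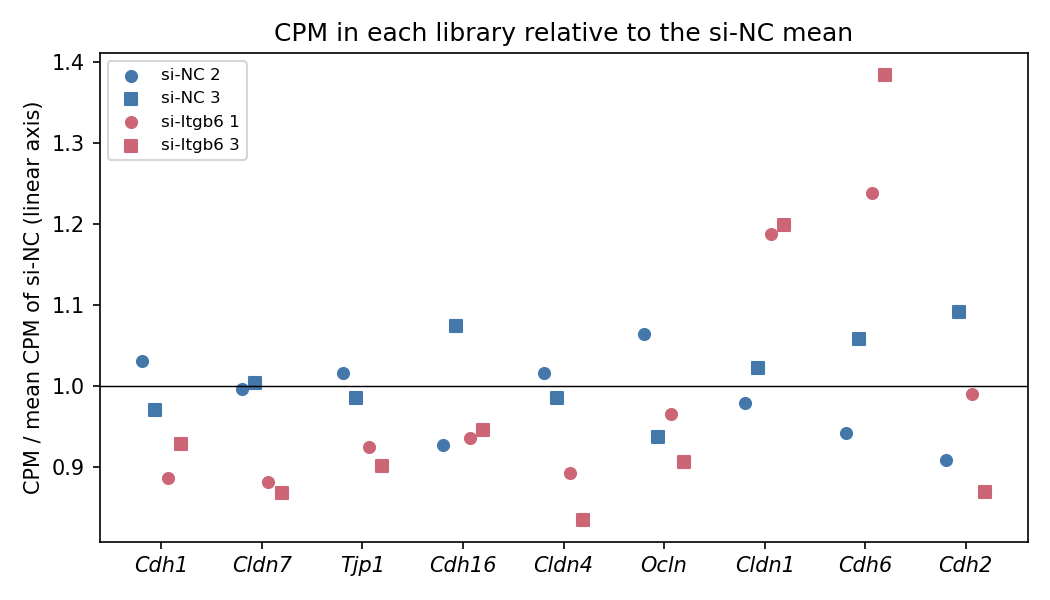
CPM of each gene in each library divided by the mean CPM of the si-NC libraries, on a linear axis that does not start at 0; the black line marks 1. Both red points lie below both blue points for Cdh1, Cldn7, Tjp1 and Cldn4 and above them for Cldn1 and Cdh6, while the groups overlap for Cdh16, Ocln and Cdh2.

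Of the cadherins, *Cdh1* (chromosome 8 from 106603351 to 106670246 in GRCm38, 16 exons) had 432 and 406 CPM in si-NC and 372 and 389 CPM in si-*Itgb6*. Both si-*Itgb6* libraries were below both si-NC libraries, by a margin no wider than the spread between replicates. Its log2 fold change was -0.14 with a 95% interval from -0.24 to -0.03 (adjusted p = 0.117, edgeR, Benjamini-Hochberg), a level 9.24% lower. Corrected for GC and length, the value was -0.09, and with 1 library left out it ran from -0.18 to -0.096, with adjusted p values of 0.0446 (without si-*Itgb6* replicate 3) to 0.717 (without si-NC replicate 2, where the unadjusted p was 0.190).
*Cdh16* (chromosome 8 from 104601911 to 104624396, 18 exons) had 135 and 156 CPM in si-NC and 136 and 138 CPM in si-*Itgb6*. The lower of the si-NC libraries was below both si-*Itgb6* libraries, so the groups overlapped. The log2 fold change was -0.09 with an interval from -0.22 to 0.05, and its sign turned without si-NC replicate 3 (0.025) and after GC and length correction (0.014).
*Cdh2* (chromosome 18 from 16588877 to 16809246, 16 exons), the cadherin of mesenchyme and nerve as well as of proximal tubule, had few reads, with 147 and 187 counts in si-NC and 152 and 142 counts in si-*Itgb6*. Its groups overlapped, and the log2 fold change of -0.11 had an interval from -0.46 to 0.25, which leaves room for a change of over 1.2-fold in the lower direction. Without si-NC replicate 3 the value was 0.035.
*Cdh6* (chromosome 15 from 13028701 to 13173675, 12 exons), a cadherin of the developing proximal nephron, had 259 and 308 counts in si-NC and 323 and 384 counts in si-*Itgb6*. Normalized to library size these were 15.9 and 17.8 CPM against 20.9 and 23.3 CPM, with both si-*Itgb6* libraries above both si-NC libraries. The log2 fold change was 0.39 with an interval from 0.13 to 0.65, a level 31.0% higher, and the adjusted p was 0.0679 (edgeR, Benjamini-Hochberg). It was the widest difference among the 9 genes and lay on one of the least abundant of them. After GC and length correction the log2 fold change of *Cdh6* was 0.33 (adjusted p = 0.171, edgeR, Benjamini-Hochberg). With si-NC replicate 2 left out, its log2 fold change was 0.31 and *Cdh6* was no longer called, and the adjusted p ranged from 0.0344 to 0.572 over the alternatives that gave one.

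Of the claudins, *Cldn1* (chromosome 16 from 26356642 to 26371841, 4 exons), a sealing claudin without which the skin barrier fails, had 73.8 and 77.0 CPM in si-NC and 89.5 and 90.4 CPM in si-*Itgb6*. Replicates lay within a few CPM of each other, and the groups were well apart. The log2 fold change was 0.25 with an interval from 0.11 to 0.40, a level 19.3% higher, with an adjusted p of 0.0355 (edgeR, Benjamini-Hochberg). The adjusted p ranged from 0.0215 to 0.471 over the alternatives, was 0.0575 with DESeq2 and was also over 0.05 without si-NC replicate 2 (0.471), with si-NC replicate 3 left out (0.134) and with si-*Itgb6* replicate 3 left out (0.0865). After GC and length correction the log2 fold change was 0.17 (adjusted p = 0.232, edgeR, Benjamini-Hochberg). The longest *Cldn1* transcript has a GC content of 39.0%, the lowest of the 9 genes, against a median of 49.8% over the genes tested.
*Cldn4* (chromosome 5 from 134945119 to 134946934, a single exon), a claudin best known for restricting sodium, had 83.2 and 80.7 CPM in si-NC and 73.1 and 68.4 CPM in si-*Itgb6*. *Cldn7* (chromosome 11 from 69964779 to 69967885, 4 exons), which also lies along the basolateral membrane, had 108 and 108 CPM in si-NC and 95.04 and 93.7 CPM in si-*Itgb6*. In both genes the si-*Itgb6* libraries were the lower ones without overlap. The log2 fold change of *Cldn4* was -0.21 with an interval from -0.36 to -0.06 (adjusted p = 0.0969, edgeR, Benjamini-Hochberg), and that of *Cldn7* was -0.19 with an interval from -0.33 to -0.06 (adjusted p = 0.0941, same test). Their GC contents were 56.8% and 57.0%, and after GC and length correction their log2 fold changes were -0.11 and -0.11. Neither passed a threshold with a correction for multiple tests.

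Because *Cldn1* was higher where *Cldn4* and *Cldn7* were lower, the ratios within a library moved further than any of these 3 claudins alone. Per length, *Cldn7* was 3.56-fold and 3.46-fold the level of *Cldn1* in si-NC and 2.59-fold and 2.57-fold in si-*Itgb6*. *Cldn4* was 2.02-fold and 1.87-fold the level of *Cldn1* in si-NC and 1.46-fold and 1.35-fold in si-*Itgb6*. These ratios did not overlap between the groups. That follows from the 3 genes, whose groups each lay apart in opposite directions, and is no further result. The si-*Itgb6* means were 0.736 and 0.723 of the si-NC means. From the fitted fold changes the ratios moved to 0.733 and 0.723 of si-NC, and after GC and length correction to 0.824 and 0.821. The ratio of *Cldn7* to *Cldn4*, in contrast, was 1.76 and 1.85 in si-NC and 1.78 and 1.90 in si-*Itgb6*, with overlap. The share of *Cldn1* in the claudin FPKM was 10.9% ± 0.179 (SD, n = 2) in si-NC and 13.7% ± 0.308 (SD, n = 2) in si-*Itgb6*. That of *Cldn12* was 14.2% ± 0.813 (SD, n = 2) and 17.6% ± 0.417 (SD, n = 2). The summed claudin FPKM was 212 and 215 in si-NC and 205 and 198 in si-*Itgb6*. Among the cadherins, *Cdh16* was 26.3-fold and 26.1-fold the level of *Cdh6* in si-NC and 20.4-fold and 18.2-fold in si-*Itgb6*, without overlap. The groups of *Cdh16* overlapped, so this mostly restates the difference of *Cdh6* and is no further result. The fitted ratio of *Cdh16* to *Cdh6* moved to 0.718 of si-NC, or to 0.804 after GC and length correction.

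**Figure D4:**
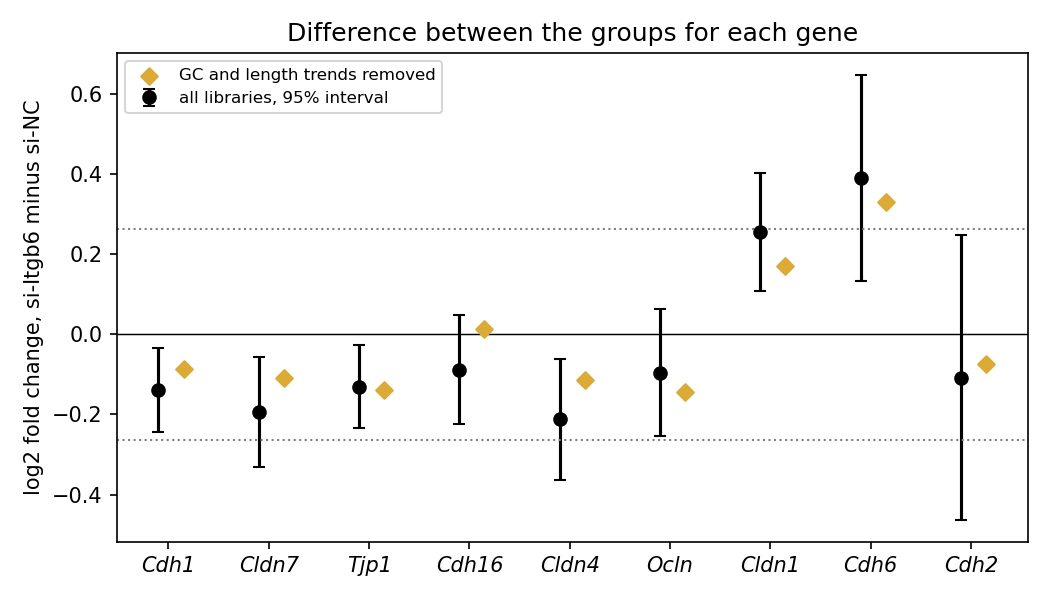
Log2 fold change of each gene (si-Itgb6 minus si-NC) with its 95% interval (black, edgeR), and the value after GC and length correction (yellow diamonds); dotted lines mark a fold of 1.2. Of the points, only that of Cdh6 lies beyond a dotted line, and the diamond of Cdh16 lies on the other side of 0 (0.014 against -0.09).

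Of the proteins of the tight junction plaque and strand, *Tjp1* (chromosome 7 from 65296165 to 65527781, 28 exons) had 387 and 375 CPM in si-NC and 352 and 343 CPM in si-*Itgb6*, without overlap. Its log2 fold change was -0.13 with an interval from -0.23 to -0.03 (adjusted p = 0.141, edgeR, Benjamini-Hochberg), and -0.14 after GC and length correction. *Ocln* (chromosome 13 from 100496507 to 100552718, 9 exons) had 82.9 and 73.0 CPM in si-NC and 75.2 and 70.6 CPM in si-*Itgb6*, and the groups overlapped. Its log2 fold change of -0.10 had an interval from -0.25 to 0.06, and it was -0.0030 in the fit that left it nearest to 0, without si-NC replicate 2. For both genes these intervals, from the fit of all libraries, leave out a change of over 1.2-fold in either direction. The log2 fold change of *Ocln* was further from 0 after GC and length correction (-0.14) and without si-NC replicate 3 (-0.18). No interval is given for those fits, so the limit is not shown to hold there.

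The promoter windows of the genes that passed a rule, *Cdh6* and *Cldn1*, and of the claudins with opposite values, *Cldn4* and *Cldn7*, are shown because factors of the Snail and Zeb families, which repress epithelial junction genes, and TEAD factors, the DNA-binding partners of YAP studied by the authors, bind short known motifs. The windows run from 250 bases before to 50 bases after a RefSeq transcription start in GRCm38.p6, and 6 of the 9 genes had at least 1. No window of *Cdh1*, *Cdh2* or *Cdh16* was searched, and for *Cdh2* the windows on its chromosome, 18, were not used. Capitals mark the E-box of Snail and Zeb proteins (CACCTG or its complement CAGGTG) and the TEAD motif (GGAATG or its complement CATTCC), which do not overlap in these windows.
Cdh6 (chr15:13173626-13173925, minus strand): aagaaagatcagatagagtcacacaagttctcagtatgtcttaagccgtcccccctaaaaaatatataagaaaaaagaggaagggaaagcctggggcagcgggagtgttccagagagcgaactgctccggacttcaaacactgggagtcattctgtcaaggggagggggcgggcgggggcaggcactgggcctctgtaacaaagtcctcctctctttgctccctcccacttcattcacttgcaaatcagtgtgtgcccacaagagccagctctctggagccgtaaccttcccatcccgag
Cldn1 (chr16:26371790-26372089, minus strand): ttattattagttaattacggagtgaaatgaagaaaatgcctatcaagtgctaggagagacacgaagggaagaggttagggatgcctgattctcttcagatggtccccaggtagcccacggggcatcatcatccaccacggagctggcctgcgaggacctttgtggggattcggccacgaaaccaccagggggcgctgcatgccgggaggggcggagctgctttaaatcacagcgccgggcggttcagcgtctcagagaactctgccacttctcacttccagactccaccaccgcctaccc
Cldn4 (chr5:134946885-134947184, minus strand): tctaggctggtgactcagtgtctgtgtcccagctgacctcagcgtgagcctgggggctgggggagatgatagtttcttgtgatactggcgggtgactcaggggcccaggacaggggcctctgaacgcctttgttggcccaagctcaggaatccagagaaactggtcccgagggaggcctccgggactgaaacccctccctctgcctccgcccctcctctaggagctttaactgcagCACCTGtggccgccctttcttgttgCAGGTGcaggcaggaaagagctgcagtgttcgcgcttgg
Cldn7, upstream start (chr11:69964529-69964828, plus strand): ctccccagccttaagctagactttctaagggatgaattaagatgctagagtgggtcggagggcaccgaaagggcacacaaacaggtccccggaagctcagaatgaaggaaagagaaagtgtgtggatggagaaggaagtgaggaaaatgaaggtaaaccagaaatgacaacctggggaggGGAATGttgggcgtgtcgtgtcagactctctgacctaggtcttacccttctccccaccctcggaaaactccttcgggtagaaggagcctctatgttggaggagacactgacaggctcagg
Cldn7, downstream start (chr11:69965171-69965470, plus strand): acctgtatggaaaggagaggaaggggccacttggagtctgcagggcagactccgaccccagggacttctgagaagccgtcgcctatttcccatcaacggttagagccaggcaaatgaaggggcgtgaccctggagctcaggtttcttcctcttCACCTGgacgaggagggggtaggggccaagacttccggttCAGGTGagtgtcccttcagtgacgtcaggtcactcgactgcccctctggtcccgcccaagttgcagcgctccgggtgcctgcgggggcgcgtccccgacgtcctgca
The *Cldn4* window held 2 E-boxes, 14 bases before and 11 bases after the start site, and the window at the downstream start of *Cldn7* held 2, at 97 and 57 bases before it. The window at the upstream start of *Cldn7* held a TEAD motif 70 bases before the site. Neither motif was found in the windows of *Cdh6*, *Cldn1* and *Tjp1*, while both *Ocln* windows held at least 1 E-box. The *Ocln* windows overlap, and 1 E-box is the same site in both. Of the 32851 windows of all genes, 20.2% held an E-box and 2.88% held 2 or more, and 14.7% held a TEAD motif. A match describes these letters only, and the binding of a factor was not measured here. *Snai1*, which encodes Snail, fell from 43 and 25 counts in si-NC to 6 and 9 counts in si-*Itgb6*, at most 2.64 CPM in any library. Its log2 fold change was -2.10 (adjusted p = 0.0150, edgeR, Benjamini-Hochberg). Both si-*Itgb6* counts were under the minimum count of 10. *Snai1* thus passed the filter only through its si-NC libraries, and its test gives no separate support for the fall. Without si-NC replicate 2 it was not called (-1.61). *Tcf3*, which encodes the E-box factor E2A, fell by 0.38 on the log2 scale (adjusted p = 0.0159, edgeR, Benjamini-Hochberg), or by 0.22 after GC and length correction (adjusted p = 0.241), a fold under 1.2 that was no longer called. Its adjusted p was 0.0505 with DESeq2, 0.417 without si-NC replicate 2, 0.0570 without si-NC replicate 3 and 0.104 with si-*Itgb6* replicate 3 left out. *Snai2* had 0 counts in all libraries and *Zeb1* had 1 count in 1 library, so these repressors of *Cdh1* were at or under the limit of 3 counts. Of a list of 17 such repressors and epithelial factors, 13 were tested. At the study's thresholds 3 were called lower (*Snai1*, *Tcf3* and *Grhl1*) and 1 higher (*Twist2*). That is 30.8% against 9.57% of all genes tested (5.2% lower and 4.37% higher). The list was chosen with earlier results of these data known and counts *Snai1*, so the larger share is a description and no support. The call of *Grhl1* was lost without si-NC replicate 3 (-0.71), and that of *Twist2*, whose exons overlap an antisense transcript, on 17 to 35 counts, was lost with DESeq2 and without any 1 of the 4 libraries (0.80 to 1.11). *Esrp1*, an epithelial splicing factor, had a mean of 47.2 FPKM and *Ovol1* one of 16.4 FPKM, and neither was called.

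The junction components around the 9 genes were read from 5 further lists of 98 symbols, of which 54 were tested. Of these, 3 were called lower and 2 higher at the study's thresholds, 9.26% of those tested against 9.57% of all genes. Their median log2 fold change was -0.044, and 34 had lower and 20 higher values. At an adjusted p under 0.05, 2 were lower and 1 higher.
Among the adherens junction partners, 15 were tested. *Ctnnb1*, which encodes beta-catenin, the link between E-cadherin and alpha-catenin, fell from 430 and 399 CPM in si-NC to 345 and 337 CPM in si-*Itgb6*. The difference was -0.28 ± 0.05 (SE) on the log2 scale (adjusted p = 0.000989, edgeR, Benjamini-Hochberg). Its exons overlap those of *Ulk4* on the opposite strand, and without strand information the reads of such overlaps cannot be told apart. After GC and length correction the log2 fold change was -0.24 (adjusted p = 0.00723, edgeR, Benjamini-Hochberg), and without si-NC replicate 2 it was -0.23 (adjusted p = 0.266), both folds under 1.2. *Arvcf*, a relative of p120-catenin, fell by 0.42 on the log2 scale at the study's thresholds (adjusted p = 0.0659, edgeR, Benjamini-Hochberg) and was not called without si-NC replicate 3 (-0.31). *Ctnna1*, the alpha-catenin gene and the highest of this list at 245 FPKM, had a log2 fold change of -0.014, and *Nectin2*, at 89.5 FPKM, had 0.0047.
Among the other claudins, 4 were tested and 0 were called at the study's thresholds by edgeR or by DESeq2, while 2, *Cldn3* and *Cldn12*, had an unadjusted p below 0.05 with edgeR. *Cldn12*, the highest of them at 32.8 FPKM, had 101 and 112 CPM in si-NC and 126 and 125 CPM in si-*Itgb6* and rose at an adjusted p of 0.0364 (log2 fold change 0.24, edgeR, Benjamini-Hochberg). Without si-NC replicate 2 its log2 fold change was 0.16 (adjusted p = 0.594), and after GC and length correction 0.22 (adjusted p = 0.0799). *Cldn3* had 34.9 and 34.8 CPM in si-NC and 31.4 and 28.1 CPM in si-*Itgb6*, with a log2 fold change of -0.23 (adjusted p = 0.217, same test), and *Cldn9*, at 4.23 FPKM, had 0.089. The claudins over 10 FPKM thus differed in sign, with *Cldn1* and *Cldn12* higher and *Cldn3*, *Cldn4* and *Cldn7* lower. Their GC contents were 39.0% and 44.5% for the higher ones and 62.7%, 56.8% and 57.0% for the lower ones. No value corrected for GC and length is given for *Cldn3*, and the part of GC content in these signs was not tested. Among the other cadherins, 6 were tested and *Cdh13* rose at the study's thresholds, from 24.1 and 29.4 CPM to 34.7 and 33.3 CPM (log2 fold change 0.34, adjusted p = 0.0637, same test). It was not called without si-NC replicate 2 (0.21). *Cdh3* had a log2 fold change of -0.084, and *Cdh17*, at 2.40 FPKM, had -0.050.
Among the tight junction partners, 20 were tested. *Ildr1*, a protein of tricellular contacts, fell by 0.47 on the log2 scale at the study's thresholds (adjusted p = 0.248, edgeR, Benjamini-Hochberg) on 68 to 108 counts. *Sympk*, whose product symplekin works in RNA processing as well as at junctions, fell by 0.23 (adjusted p = 0.00989, same test), a fold under 1.2, and had -0.11 after GC and length correction (adjusted p = 0.376) and -0.20 without si-NC replicate 2 (adjusted p = 0.396). The highest of the list, *Ybx3* at 498 FPKM, *Lsr* at 88.5 FPKM and *Cxadr* at 78.2 FPKM, were not called, with log2 fold changes of 0.019, -0.15 and 0.045. Among the desmosome genes, 9 were tested and *Dsg3* was called higher on 24 to 45 counts (log2 fold change 0.78, adjusted p = 0.253, same test), while *Pkp2* at 77.8 FPKM, *Perp* at 45.8 FPKM and *Dsg2* at 32.6 FPKM had log2 fold changes of -0.041, -0.026 and 0.053. The calls of *Ildr1* and *Dsg3* were lost with DESeq2 and after GC and length correction, that of *Dsg3* also without any 1 of the 4 libraries, and that of *Ildr1* without any 1 but si-*Itgb6* replicate 1. The 5 epithelial markers had log2 fold changes under 0 as well, with a median of -0.12. Those of *Krt19* (-0.0072) and *Krt18* (-0.029) were near 0, and their groups overlapped. *Krt8* fell from 781 and 781 CPM to 685 and 677 CPM (adjusted p = 0.00881, same test). Its GC content was 57.1%, and no value corrected for GC and length is given for it. The part of these markers in the values of the junction genes was not tested.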

How the data were processed

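RNA was sequenced from 4 libraries of TKPTS cells, 2 si-NC and 2 si-*Itgb6*, as polyadenylated RNA in read pairs without strand information. The authors deposited estimated counts per gene, which carry no normalization and have decimals in 1447 to 1500 genes per library, and FPKM values. Aligner, counter, genome build and annotation are not given in the sources used here. The estimated counts of the 9 genes were whole in all libraries, and their exons overlapped no other gene of GENCODE vM21 (GRCm38), from which positions were taken.

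Estimated counts were rounded, filtered with filterByExpr (minimum count 10, minimum total 15) and scaled by TMM, and edgeR 4.0.16 (R 4.3.3) gave quasi-likelihood tests, whose p-values were adjusted by Benjamini-Hochberg over all 11727 genes. CPM used TMM-normalized library sizes. Standard errors came from the log2 fold change and its F statistic, and intervals are at the 95% level. A count of 0 was read as allowing up to 3 counts, and such limits cover counting error only. Alternatives were RLE factors, library size only, both other filters, DESeq2 1.42.0, the likelihood ratio test, lowess trends of counts on the GC content and the length of each gene's longest transcript (span 0.3) entered as offsets, and leaving out each library. FPKM were used for levels and shares, in no test. Promoter windows were taken from RefSeq (GRCm38.p6), and the TEAD motif was added after the values were seen.

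The 9 genes and all lists were chosen with earlier results of these data known. Named from the other lists were genes called by either rule and the 3 highest by mean FPKM, of which 1 is not reported here, and *Cldn2*, *Cldn10*, *Snai2*, *Zeb1* and the marker genes were named after their values were seen.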

Additional observations from a re-analysis of the deposited data

How the results depend on the processing

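At the study's thresholds the number of the 9 genes called higher was 1 with every change of normalization, filter or test and after GC and length correction, and that called lower was 0. With 1 library left out, the log2 fold change of *Cdh6* ran from 0.31 to 0.48 and that of *Cldn1* from 0.22 to 0.29. In the wider junction lists 5 genes were called. The number was 3 at an adjusted p under 0.05 (*Ctnnb1*, *Sympk* and *Cldn12*, of which *Ctnnb1* is among the 5). That rule called 4.62% of all genes. At the study's thresholds the number was 3 with DESeq2 and 1 after GC and length correction. *Arvcf* has no GC value and could not enter the corrected fit, and the cause of the other losses was not tested. The sign turned for *Cdh2* and *Cdh16* when si-NC replicate 3 was left out (leave-one-out ranges -0.23 to 0.035 and -0.19 to 0.025) and for *Cdh16* after GC and length correction (0.014). No gene of the 9 reached an adjusted p under 0.05 with library size only, DESeq2 or GC and length correction, nor without si-NC replicate 2 or 3. The number of the 9 genes over 10 FPKM was 7 throughout. Over all genes, DESeq2 called 383 lower and 320 higher and the corrected fit called 376 and 487, against 610 and 512. No paired analysis was possible because the groups share 1 replicate number only. With 2 libraries per group the differences of *Cdh2* and *Cdh6*, at 142 to 384 counts, are the least precise.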
